A study of Homo sapiens with 6 samples.

Results

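CFTR and 7 further genes of epithelial ion transport were followed in SZ95 sebocytes, an immortalised human cell line from the sebaceous gland, after transfection with a plasmid that overexpresses TRPV3. The 8 genes (CFTR, ANO1, SLC12A2, SCNN1A, ATP1B1, CLIC1, LRRC8A and KCNN4) were taken from the deposited table by symbol, and all 8 were found among its 58735 genes. Cells with the TRPV3-overexpression plasmid (3 libraries, genotype labelled as TRPV3 overexpression) were compared with cells that received a mock plasmid (3 libraries, genotype labelled WT), and the labels give 24 h for both. TRPV3 lets calcium and other cations into the cell and opens with warmth; the series asks what it does in sebocyte inflammation. The sources used here give neither the promoter on the plasmid nor the share of cells that took it up. The 8 genes were chosen by their role in ion transport with the fitted differences in FPKM between these 2 groups already known, so their differences are descriptions, with standard errors and without p-values.

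In secretory epithelia, chloride enters the cell with sodium and potassium through the cotransporter NKCC1 and leaves through channels in the opposite membrane. CFTR is the channel opened by cyclic AMP and protein kinase A, and ANO1 is the one opened by calcium. The sodium pump keeps the sodium gradient, potassium channels such as KCNN4 keep the membrane voltage that drives chloride out, and the epithelial sodium channel ENaC takes sodium back up. LRRC8 proteins form the anion channel that opens when a cell swells.

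Promoter sequence is shown for the 3 genes, CFTR, LRRC8A and CLIC1, in which a motif of calcium- or cyclic AMP-linked transcription factors lies near the start of transcription. Windows of 250 bases before to 50 bases after the start came from RefSeq (GRCh38.p14) and were found for 7 of the 8 genes, with 2 windows for LRRC8A. The windows were searched on both strands for TGANTCA, the usual AP-1 motif, and for TGACNTCA, which covers the cyclic AMP response element and close variants. The motifs were chosen with the windows in view. In capitals are the matches, in CFTR (chr7:117479775-117480074, plus strand), LRRC8A (chr9:128881883-128882182, plus strand) and CLIC1 (chr6:31736481-31736780, minus strand), each written 5′ to 3′ on the gene's own strand.
CFTR: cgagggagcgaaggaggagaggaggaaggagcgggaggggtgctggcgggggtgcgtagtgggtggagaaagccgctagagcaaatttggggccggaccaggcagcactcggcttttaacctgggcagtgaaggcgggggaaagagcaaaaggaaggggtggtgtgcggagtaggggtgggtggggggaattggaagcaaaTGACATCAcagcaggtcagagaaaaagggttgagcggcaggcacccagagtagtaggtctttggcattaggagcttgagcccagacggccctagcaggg
LRRC8A: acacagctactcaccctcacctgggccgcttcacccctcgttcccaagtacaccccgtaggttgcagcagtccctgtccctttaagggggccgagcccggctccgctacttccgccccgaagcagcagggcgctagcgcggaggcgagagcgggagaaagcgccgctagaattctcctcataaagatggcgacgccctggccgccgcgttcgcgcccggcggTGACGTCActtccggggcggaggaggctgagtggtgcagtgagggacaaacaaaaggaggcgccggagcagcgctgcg
CLIC1: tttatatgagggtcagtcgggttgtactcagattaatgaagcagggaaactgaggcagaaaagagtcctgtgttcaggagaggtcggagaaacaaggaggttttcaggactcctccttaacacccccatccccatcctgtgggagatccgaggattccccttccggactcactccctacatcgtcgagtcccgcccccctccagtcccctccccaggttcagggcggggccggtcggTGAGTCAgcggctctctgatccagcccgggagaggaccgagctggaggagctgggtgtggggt

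The CFTR window holds TGACATCA, which begins 49 bases before the start. LRRC8A holds TGACGTCA, which begins 28 bases before it, and CLIC1 holds TGAGTCA, which begins 13 bases before it. Of 35116 RefSeq windows of this length, 7.71% hold TGANTCA and 7.72% hold TGACNTCA, and no match of one overlapped a match of the other. These letters are not in the windows of SLC12A2, ATP1B1 and KCNN4 or in the other LRRC8A window. The windows of CFTR and CLIC1 lie inside the deposited genes, which reach further upstream (to 117465784 in CFTR and to 31739763 in CLIC1), and that of LRRC8A spans the deposited start. The ANO1 window (chr11:69985657-69985956) lies upstream of the deposited ANO1 gene, whose start is at 70078302, and is not shown.

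The deposited values are FPKM (fragments per kilobase of gene, depth-scaled), so that levels of different genes are compared per length. Whole reads recovered from them totalled between 16.0 and 18.4 M per library. TRPV3 itself, read first because it checks the labels, was at 536, 671 and 738 FPKM in TRPV3 replicates 1 to 3, against 0.437, 0.359 and 0.415 FPKM in mock replicates 1 to 3 (log2 fold change of FPKM + 1 of 8.84, SE 0.12, adjusted p = 2.7e-07 by limma). Exact two-sided permutation of the 6 libraries gave p = 0.1, and with 3 against 3 it can give no smaller one. Of 16 sebocyte markers 11 averaged at least 1 FPKM, led by KRT7, SCD and KRT5, while AWAT2 had no read in any library. Markers of the eccrine sweat gland, a skin gland rich in ion channels, summed to between 0 and 0.0287 FPKM in TRPV3 libraries and between 0 and 1.1 FPKM in mock libraries over 8 genes, none of which averaged 1 FPKM. The 1.1 FPKM is that of mock replicate 3, a library that stood apart as described below. In the other mock libraries the only read was 1 of FOXI1, in mock replicate 2. Of 5 markers of differentiated keratinocytes 2 averaged at least 1 FPKM and LOR was at 0. The 5 summed to 21.7 to 24.4 FPKM with TRPV3 and to 15.7 to 21.9 FPKM with mock. Most of this was KRT10, with means of 19.9 FPKM for TRPV3 and 16.0 FPKM for mock and every TRPV3 library above. IVL overlapped between the groups, with means of 3.07 FPKM for TRPV3 and 2.61 FPKM for mock. FLG, near 0, was lower in every TRPV3 library, and KRT1 had reads in mock replicate 3 alone. The part of keratinocyte markers in the values below was not tested. Fibroblast markers (1 of 7 at 1 FPKM or more) summed to 2.46 to 2.56 FPKM with TRPV3 and 2.69 to 3.24 FPKM with mock, and endothelial markers (1 of 4) to 1.35 to 1.49 FPKM with TRPV3 and 1.13 to 1.42 FPKM with mock. No marker of melanocytes (5 genes) or immune cells (5 genes) averaged 1 FPKM.

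A pair of libraries stood apart from the rest. In TRPV3 replicate 1 short genes read high and long genes read low relative to the other 5 libraries. The chi-square per degree of freedom against TRPV3 replicates 2 and 3 was 42.0 and 48.8, where TRPV3 replicates 2 and 3 differed by 2.42 and the mock libraries by 3.15 to 6.55. Mock replicate 3 had reads in 34467 genes, against 22311 to 23072 in each of the other 5 libraries. Fold changes of the 8 genes and medians of gene lists are therefore given with and without TRPV3 replicate 1, and the effect of also leaving out mock replicate 3 is given with the alternatives.

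All 8 genes were expressed, over a wide range of levels. By mean FPKM over the 6 libraries the order was CLIC1 (116), LRRC8A (107), SCNN1A (55.9), ATP1B1 (36.3), KCNN4 (21.1), ANO1 (5.59), SLC12A2 (5.16) and CFTR (3.09). CLIC1 and LRRC8A could not be ordered, since CLIC1 was the higher in only 2 of 6 libraries. The next 3 steps, down from LRRC8A to SCNN1A, ATP1B1 and KCNN4, and that from KCNN4 to ANO1 separated every library of one gene from every library of the next. ANO1 was above SLC12A2 in 5 of 6 libraries with overlapping ranges, and SLC12A2 was above CFTR in 6 of 6 although their ranges over libraries also overlapped. The order of ANO1 and SLC12A2 rests on the length used. They are counted over 6021 and 10664 bases of annotated exons, while their transcripts with the longest coding sequence have 4790 and 6885 bases. SLC12A2 had more reads than ANO1 in every library. CLIC1 and LRRC8A were more abundant than 97.5% and 97.3% of the 12177 genes that averaged 1 FPKM or more and were tested, whereas CFTR was above 27.3% of them.

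With all 6 libraries 0 of the 8 genes passed limma's test at an adjusted p under 0.05, where 0.0411% of all genes tested did. That is 5 of 12177 genes, all higher with TRPV3. At an unadjusted p under 0.05 the number was also 0 of 8, against 4.48% of all genes tested. The median log2 fold change of the 8 was 0.08, beside 0.01 over all genes tested. Of the 8, 5 were above 0, where 6458 of all 12177 genes tested were. Under TPM scaling that median was -0.0041, and the median over all genes was -0.08. The 3 TRPV3 libraries were all above the 3 mock libraries in 2 of the 8, CLIC1 and ATP1B1, where 9.49% of all genes tested had that order. They were all below in 1 of the 8, SCNN1A, where 5.39% had it. RNA of whole cultures was measured, so that fewer cells that express a gene and less RNA per cell cannot be told apart.

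**Figure D1:**
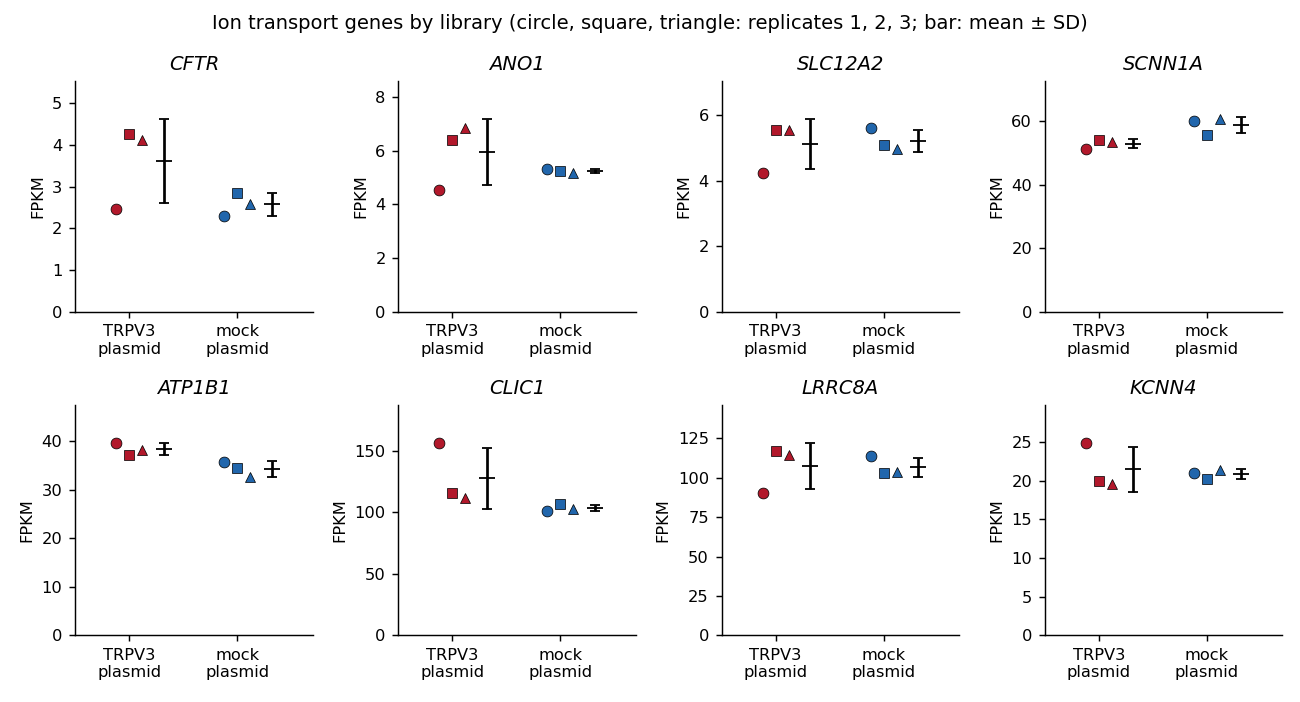
FPKM of each gene (vertical axes, starting at 0) in the 3 TRPV3 and the 3 mock libraries, with symbols for replicates 1, 2 and 3 and the mean ± SD at the right of each group. TRPV3 replicate 1, the red circle, lay below the other TRPV3 libraries for CFTR, ANO1, SLC12A2, SCNN1A and LRRC8A and above all 5 other libraries for ATP1B1, CLIC1 and KCNN4.

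Among the channels through which chloride leaves the cell, CFTR (ENSG00000001626, chromosome 7, 117465784 to 117715971, plus strand, hg38) was at 2.46, 4.26 and 4.11 FPKM in TRPV3 replicates 1 to 3, against 2.29, 2.85 and 2.58 FPKM in mock replicates 1 to 3. These values rest on 405, 712 and 671 reads with TRPV3 and 375, 432 and 439 reads with mock. TRPV3 replicates 2 and 3 were above every mock library, and TRPV3 replicate 1 was within the mock range, so the groups overlapped. CFTR averaged 3.61 ± 0.999 FPKM with TRPV3 and 2.57 ± 0.282 FPKM with mock (SD, n = 3 each), a ratio of means of 1.40. Its log2 fold change was 0.35 (SE 0.17), the largest of the 8. It was 0.54 (SE 0.09) without TRPV3 replicate 1, and 0.43 (SE 0.12) once the trend with gene length was removed from each library. The mean of TRPV3 replicates 2 and 3 alone was 4.18 FPKM, 1.63 times the mock mean. The gene is counted over 9343 bases of annotated exons, more than the 6132 bases in 27 exons of its transcript with the longest coding sequence. On the opposite strand it shares 51 exonic bases with CTTNBP2 (up to 8 reads per library) and 8 with CFTR-AS1 (0 reads).

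ANO1, the calcium-activated chloride channel (ENSG00000131620, chromosome 11, 70078302 to 70189528, plus strand), was at 4.54, 6.40 and 6.85 FPKM with TRPV3, against 5.33, 5.23 and 5.18 FPKM with mock. The libraries fell in the same places as for CFTR in that TRPV3 replicates 2 and 3 were above every mock library, while TRPV3 replicate 1 was the lowest of the 6. It averaged 5.93 ± 1.23 FPKM with TRPV3 and 5.25 ± 0.0795 FPKM with mock, with a log2 fold change of 0.13 (SE 0.14). Without TRPV3 replicate 1 this was 0.29 (SE 0.06), the second largest of the 8, and with the length trend removed 0.16 (SE 0.11). Its antisense partner ANO1-AS1, which shares 646 exonic bases, had no read in any library.

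CLIC1, a soluble protein that can insert into membranes as a chloride channel (ENSG00000213719, chromosome 6, 31730581 to 31739763, minus strand), was at 156, 115 and 111 FPKM with TRPV3, against 101, 106 and 103 FPKM with mock. The groups did not overlap, but TRPV3 replicate 1 was far above the other TRPV3 libraries. It averaged 128 ± 24.8 FPKM with TRPV3 and 103 ± 2.73 FPKM with mock, a log2 fold change of 0.28 (SE 0.14). This was 0.13 (SE 0.05) without TRPV3 replicate 1 and 0.16 (SE 0.06) with the length trend removed. CLIC1 shares 37 exonic bases, 1.91% of its length, with DDAH2 on the same strand. DDAH2 had between 137 and 220 reads in a library.

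LRRC8A, the subunit that every volume-regulated anion channel needs (ENSG00000136802, chromosome 9, 128882112 to 128918039, plus strand), was at 90.4, 117 and 114 FPKM with TRPV3, against 114, 103 and 103 FPKM with mock. TRPV3 replicate 1 was the lowest library and the groups overlapped. The means were 107 ± 14.7 FPKM with TRPV3 and 107 ± 6.02 FPKM with mock. Its log2 fold change of -0.0014 (SE 0.12) was 0.12 (SE 0.06) without TRPV3 replicate 1, and it had the opposite sign in 4 of 17 alternatives.

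SLC12A2, which encodes the chloride loader NKCC1 (ENSG00000064651, chromosome 5, 128083766 to 128189688, plus strand), was at 4.25, 5.55 and 5.54 FPKM with TRPV3, against 5.60, 5.09 and 4.95 FPKM with mock. TRPV3 replicate 1 was again the lowest of the 6, and the other TRPV3 libraries were within the mock range. The log2 fold change of -0.03 (SE 0.11) was 0.08 (SE 0.07) without TRPV3 replicate 1 and 0.07 (SE 0.06) with the length trend removed, and its sign turned in 5 of 17 alternatives.

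SCNN1A, the alpha subunit of ENaC (ENSG00000111319, chromosome 12, 6346843 to 6377730, minus strand), was at 51.4, 54.2 and 53.4 FPKM with TRPV3, against 60.1, 55.8 and 60.6 FPKM with mock. Every TRPV3 library was below every mock library. It averaged 53.0 ± 1.44 FPKM with TRPV3 and 58.8 ± 2.62 FPKM with mock, with a log2 fold change of -0.15 (SE 0.07). SCNN1A kept this sign in all 17 alternatives, from -0.25 under TPM scaling to -0.10 without TRPV3 replicate 1 and mock replicate 3. It shares 422 exonic bases, 7.18% of its length, with LTBR on the opposite strand. LTBR had between 2703 and 3348 reads in a library, and without a stated strand setting the reads of the shared stretch cannot be told apart.

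ATP1B1, a beta subunit of the sodium pump (ENSG00000143153, chromosome 1, 169105697 to 169132722, plus strand), was at 39.6, 37.2 and 38.3 FPKM with TRPV3, against 35.8, 34.4 and 32.6 FPKM with mock. The groups did not overlap, with means of 38.4 ± 1.21 FPKM for TRPV3 and 34.3 ± 1.597 FPKM for mock. The log2 fold change of 0.16 (SE 0.07) was 0.14 (SE 0.05) without TRPV3 replicate 1, and 0.08 (SE 0.07) with the length trend removed. ATP1B1 shares 192 exonic bases, 6.48% of its length, with NME7 on the opposite strand. NME7 had between 244 and 391 reads in a library, and reads of the shared stretch cannot be told apart without a stated strand setting.

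KCNN4, the calcium-activated potassium channel of intermediate conductance (ENSG00000104783, chromosome 19, 43766533 to 43781261, minus strand), was at 24.8, 19.96 and 19.6 FPKM with TRPV3, against 21.0, 20.2 and 21.4 FPKM with mock. TRPV3 replicate 1 was the highest library, and TRPV3 replicates 2 and 3 were below every mock library. The log2 fold change of 0.03 (SE 0.10) was -0.07 (SE 0.05) without TRPV3 replicate 1, and its sign turned in 6 of 17 alternatives.

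The position of TRPV3 replicate 1 in these genes moved with their length. In the 3 shortest genes (CLIC1, ATP1B1 and KCNN4) it was the highest of the 6 libraries, and in the 5 longer ones it was the lowest TRPV3 library. In 4 of these 5, all but CFTR, it was the lowest of the 6. On the log2 scale its trend with gene length, measured over all genes tested, was 0.28 at the length of CLIC1 and 0.17 at that of ATP1B1. It was -0.20 at the length of CFTR and -0.24 at that of SLC12A2. The genes' own deviations in this library were 0.45 for CLIC1, -0.22 for CFTR and -0.23 for SLC12A2. LRRC8A and ANO1 lay further below the mean (-0.24 each) than the trend at their lengths, -0.02 and -0.07. These deviations are from the mean of the 6 libraries, so any difference between the groups is part of them. Within the TRPV3 group CFTR was at 2.46 FPKM in TRPV3 replicate 1, against 4.26 and 4.11 FPKM in the other TRPV3 libraries. The part of gene length in the low CFTR value of TRPV3 replicate 1 was not tested.

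**Figure D2:**
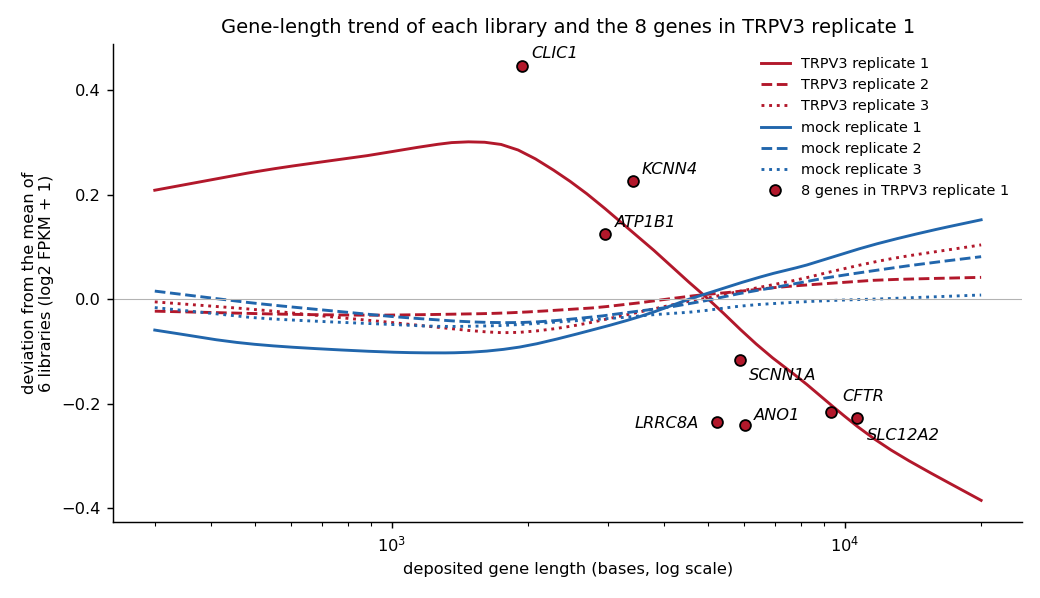
Deviation of each library from the mean of the 6 libraries (log2 of FPKM + 1) against deposited gene length (log axis), as a lowess curve per library over the genes tested, with the 8 genes as points for TRPV3 replicate 1. The curve of TRPV3 replicate 1 passes from 0.28 at the length of CLIC1 to -0.24 at that of SLC12A2, and the other 5 curves stay closer to 0 over those lengths.

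Without TRPV3 replicate 1, TRPV3 replicates 2 and 3 were both above every mock library in 5 of the 8 genes (CFTR, ANO1, ATP1B1, CLIC1 and LRRC8A), where 14.1% of all genes tested had that order. Limma on log2 values then called 0 of the 8, against 0.0657% of all genes tested. Limma-voom on the recovered reads without that library called 1 of the 8, CFTR, with a log2 fold change of 0.70 (SE 0.09), where 0.591% of all genes tested were called and 0.567% were called higher. The choice of the genes used the same contrast, so nothing is read from these counts.

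**Figure D3:**
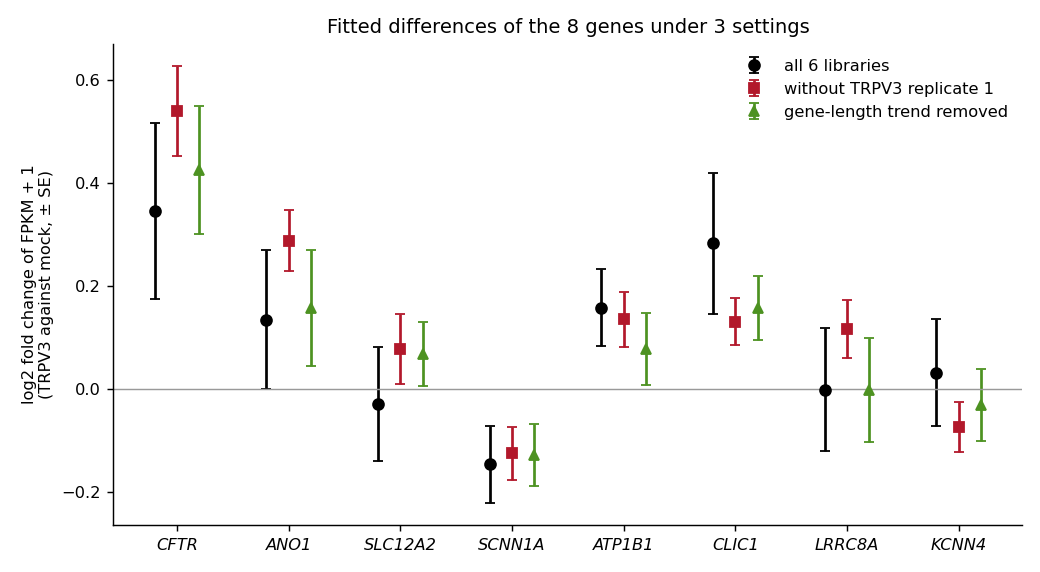
Fitted log2 fold change of FPKM + 1 (TRPV3 against mock, with SE) of each gene with all 6 libraries, without TRPV3 replicate 1 and with the gene-length trend removed. CFTR was at 0.35, 0.54 and 0.43 and SCNN1A at -0.15, -0.13 and -0.13 in that order, while SLC12A2, LRRC8A and KCNN4 changed sign between settings.

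By likeness to CFTR over the 6 libraries, taken as the root mean square distance between centred log2 values among 10624 other protein-coding genes tested, the nearest genes were SOCS3 (0.0723), BHLHA15 (0.0968) and LIF (0.117), where the median distance was 0.294. SOCS3, an inhibitor of cytokine signalling, was at 8.42, 11.4 and 12.4 FPKM with TRPV3, against 7.96, 9.15 and 8.17 FPKM with mock. BHLHA15, a transcription factor of secretory cells, was at 1.49, 2.66 and 2.15 FPKM with TRPV3, against 1.28, 1.93 and 1.65 FPKM with mock. The BHLHA15 values rest on 18 to 38 reads. LIF, a cytokine of the IL6 family, was at 14.01, 16.9 and 16.7 FPKM with TRPV3, against 11.6, 12.8 and 12.6 FPKM with mock. As in CFTR, TRPV3 replicates 2 and 3 were the highest libraries in SOCS3, BHLHA15 and LIF. These genes were picked for their likeness to CFTR over the same libraries, so nothing is read from this shared order. ANO1 ranked 10th, at a distance of 0.14, LRRC8A ranked 407th and CLIC1 8634th.

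Partner subunits of the 8 genes differed widely in level. ENaC is built from alpha, beta and gamma subunits, and SCNN1A made up 98.7 ± 0.228% of the summed ENaC subunit FPKM with TRPV3 and 98.5 ± 0.15% with mock. The beta subunit SCNN1B had 5, 11 and 4 reads with TRPV3 and 4, 3 and 5 with mock. The gamma subunit SCNN1G was at 0.517, 0.494 and 0.375 FPKM with TRPV3 and 0.617, 0.703 and 0.782 FPKM with mock, below the minimum for testing. Every TRPV3 library was the lower there, on 23 to 32 reads against 38 to 50.

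Of the beta subunits of the sodium pump, which bring the pump to the membrane, ATP1B1 gave 41.3 ± 3.35% of the beta FPKM with TRPV3 and 41.0 ± 0.512% with mock. ATP1B3, at 65.3, 52.2 and 47.9 FPKM with TRPV3 and 50.3, 49.6 and 47.6 FPKM with mock, gave 58.7 ± 3.37% with TRPV3 and 58.9 ± 0.448% with mock. The mean shares differed between groups by less than the spread between replicates. By library, the ATP1B1 share was 37.8, 41.6 and 44.4% in TRPV3 replicates 1 to 3, against 41.6, 41.0 and 40.6% in mock replicates 1 to 3. The lowest share was thus that of TRPV3 replicate 1. On the log2 scale its trend with gene length was 0.17 at the length of ATP1B1 and 0.21 at that of ATP1B3. The genes' own deviations in this library were 0.12 for ATP1B1 and 0.33 for ATP1B3. The cause of the low share was not tested.

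LRRC8A made up 82.3 ± 0.525% of the FPKM of the 5 LRRC8 genes with TRPV3 and 82.5 ± 0.476% with mock. LRRC8D, a subunit that widens the range of solutes the channel passes, followed with 12.0 ± 1.05% with TRPV3 and 11.5 ± 0.105% with mock. LRRC8B, LRRC8C and LRRC8E gave 3.28 ± 0.489%, 2.17 ± 0.155% and 0.263 ± 0.0953% with TRPV3 and 3.42 ± 0.264%, 2.16 ± 0.158% and 0.35 ± 0.0145% with mock. The median log2 fold change of the 3 tested partners was 0.0088, and 0.13 without TRPV3 replicate 1. The makeup of the family differed by less than 1 percentage point between the groups for each subunit.

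**Figure D4:**
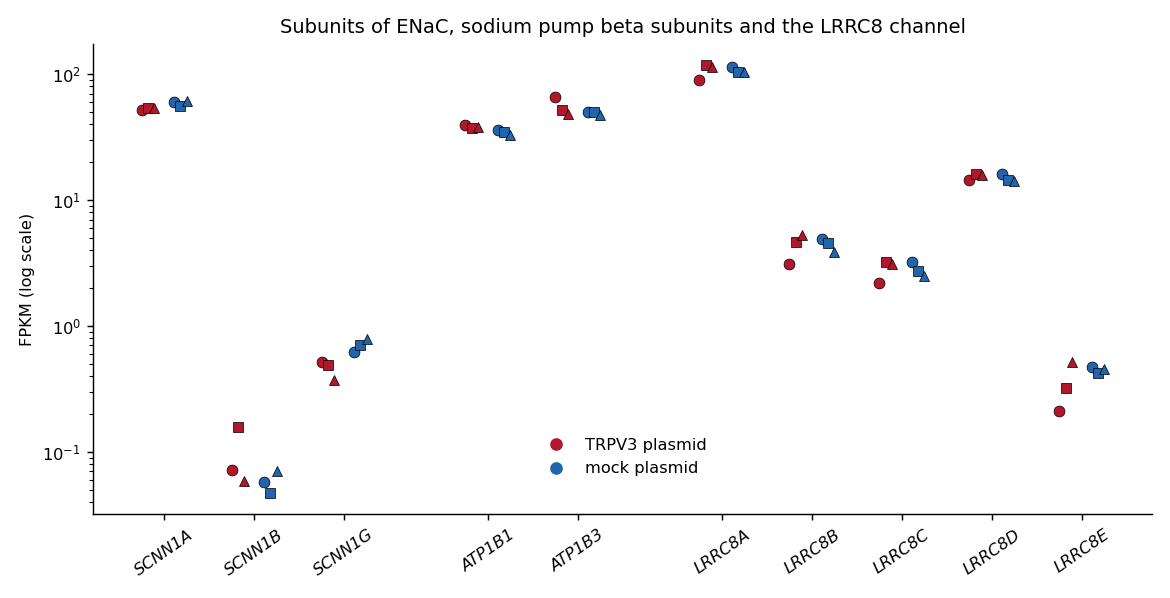
FPKM (log axis) of subunits of ENaC, beta subunits of the sodium pump and subunits of the LRRC8 channel in the 3 TRPV3 libraries (red, left) and the 3 mock libraries (blue, right), 1 point per library. SCNN1A and LRRC8A stood far above their partner subunits in both groups, whereas ATP1B1 and ATP1B3 were of similar level.

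Beyond the 8 genes, 137 related genes in 9 lists were looked up, and 69 had a mean of at least 1 FPKM and were tested. Limma called 0 of the 69, where 0.0411% of all genes tested were called, and 0 of the 69 had an unadjusted p under 0.05, where 4.48% of all did. Limma-voom without TRPV3 replicate 1 also called 0. Of the 69, 51 had a fold change below 0, where 5719 of all 12177 genes tested did. Their median was -0.07 beside 0.01 over all genes tested. Without TRPV3 replicate 1, 41 of the 69 and 5644 of all 12177 genes tested were below 0. The medians were then -0.01 for the 69 and 0.01 for all genes tested. The groups did not overlap in 6 of the 69 with every TRPV3 library above and in 3 with every one below, where all genes tested gave 9.49% and 5.39%. The largest departures in either direction were -0.33 and 0.27.

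Partners of CFTR and the SLC26 anion exchangers had a median of -0.08 over 14 genes tested of 18, with 11 below 0. Without TRPV3 replicate 1 the median was -0.02, with 8 below 0. EZR, which encodes the membrane linker ezrin, averaged 257 ± 2.59 FPKM with TRPV3 and 231 ± 8.69 FPKM with mock, with every TRPV3 library above and a log2 fold change of 0.15 (SE 0.08). The scaffold gene SLC9A3R1, whose product NHERF1 binds the end of CFTR, was at 43.0 ± 4.41 FPKM with TRPV3 and 43.2 ± 2.38 FPKM with mock. PRKAR1A, a regulatory subunit of protein kinase A, was at 33.8 ± 2.90 FPKM with TRPV3 and 34.8 ± 1.51 FPKM with mock. EZR was the only one of the 14 whose groups did not overlap.

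Of the anoctamins, bestrophins and CLCA genes 5 of 16 were tested, with a median of -0.12 that was -0.08 without TRPV3 replicate 1. ANO6, a calcium-activated scramblase, was the most abundant, at 15.5 ± 3.94 FPKM with TRPV3 and 18.8 ± 1.65 FPKM with mock. Its log2 fold change of -0.29 (SE 0.18) was -0.08 without TRPV3 replicate 1. ANO10 was at 4.01 ± 0.317 FPKM with TRPV3 and 4.53 ± 0.0492 FPKM with mock, with every TRPV3 library below. ANO9 was at 3.33 ± 0.224 FPKM with TRPV3 and 3.66 ± 0.736 FPKM with mock. ANO1 was thus above ANO9 and ANO10 and below ANO6 in mean level in both groups. ANO3, ANO4 and ANO5, named after their values were seen, had no read in the 3 TRPV3 libraries and reads in mock replicate 3 alone, at most 8.

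Among cation-chloride cotransporters and the WNK kinases that control them 9 of 14 were tested, with a median of -0.05 and 9 below 0 with all libraries. Without TRPV3 replicate 1 the median was -0.01, with 6 below 0. SLC12A7 then turned to 0.09. The potassium-chloride cotransporter SLC12A7 was at 56.2 ± 7.61 FPKM with TRPV3 and 56.9 ± 1.18 FPKM with mock, far above SLC12A2 in both groups. STK39 and OXSR1, kinases that act on NKCC1, were at 17.7 ± 0.0273 and 16.5 ± 1.62 FPKM with TRPV3 and at 18.1 ± 1.12 and 17.7 ± 2.43 FPKM with mock.

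Of the ENaC subunits and regulators 8 of 14 were tested, with a median of -0.0054 that turned to 0.0097 without TRPV3 replicate 1. The proteases that can activate the channel were abundant. ST14 was at 82.1 ± 2.99 FPKM with TRPV3 and 78.6 ± 1.47 FPKM with mock, PRSS8 at 42.3 ± 4.96 FPKM with TRPV3 and 42.4 ± 3.83 FPKM with mock, and FURIN at 30.9 ± 3.92 FPKM with TRPV3 and 31.5 ± 1.92 FPKM with mock. In none of the 8 tested genes were the groups separate. SGK1, the kinase that keeps ENaC at the membrane, lay under the minimum for testing, with 70, 85 and 53 reads with TRPV3 and 37, 40 and 46 with mock. It was named after its values were seen.

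Of the other sodium pump subunits and FXYD proteins 3 of 14 were tested, with a median of 0.15 that was 0.02 without TRPV3 replicate 1 and 0.05 once the length trend was removed. They include ATP1B3, given above. FXYD5, a small regulator of the sodium pump, was at 130, 92.5 and 89.4 FPKM with TRPV3, against 83.4, 89.4 and 80.8 FPKM with mock. The lowest TRPV3 library and the highest mock library were level at the digits printed, although FXYD5 is counted above among the genes with every TRPV3 library above. The log2 fold change of 0.27 (SE 0.15) was 0.11 without TRPV3 replicate 1. Of the CLIC and CLC genes 10 of 16 were tested, with a median of -0.13 that was -0.06 without TRPV3 replicate 1 and equally once the length trend was removed. CLIC3 was at 202, 114 and 107 FPKM with TRPV3, against 124, 125 and 130 FPKM with mock. Like CLIC1 it was highest in TRPV3 replicate 1, but the other TRPV3 libraries were below every mock library. CLIC4 was at 60.1 ± 10.6 FPKM with TRPV3 and 65.0 ± 5.11 FPKM with mock. CLNS1A, a chaperone of splicing proteins once taken for a chloride channel, was at 34.9 ± 5.50 FPKM with TRPV3 and 29.9 ± 0.555 FPKM with mock, with every TRPV3 library above. Its log2 fold change of 0.21 was 0.08 without TRPV3 replicate 1, and that of CLIC4 turned from -0.13 to 0.03.

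Few other potassium channels were expressed: 4 of 22 were tested, with a median of 0.07 that turned to -0.02 without TRPV3 replicate 1. The K2P leak channels KCNK1, KCNK5 and KCNK6 were at 11.1 ± 1.92, 10.8 ± 0.428 and 5.63 ± 0.889 FPKM with TRPV3 and at 9.58 ± 0.108, 11.8 ± 1.39 and 4.95 ± 0.154 FPKM with mock. All were below KCNN4 in both groups. The KCNN4 relatives KCNN1, KCNN2 and KCNN3, named after their values were seen, had at most 7 reads in any library.

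Of the acid-base transporters, carbonic anhydrases and aquaporins 13 of 19 were tested, 12 of them with a fold change below 0 and a median of -0.09. Without TRPV3 replicate 1, 9 were below 0 and the median was -0.08. SLC4A2, a chloride-bicarbonate exchanger, was at 17.9, 20.1 and 21.3 FPKM with TRPV3, against 24.7, 21.6 and 22.8 FPKM with mock. Every TRPV3 library was below every mock library, with a log2 fold change of -0.21 (SE 0.09) and -0.15 without TRPV3 replicate 1. The glycerol and water channel AQP3 was at 10.4 ± 1.56 FPKM with TRPV3 and 11.0 ± 1.15 FPKM with mock.

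**Figure D5:**
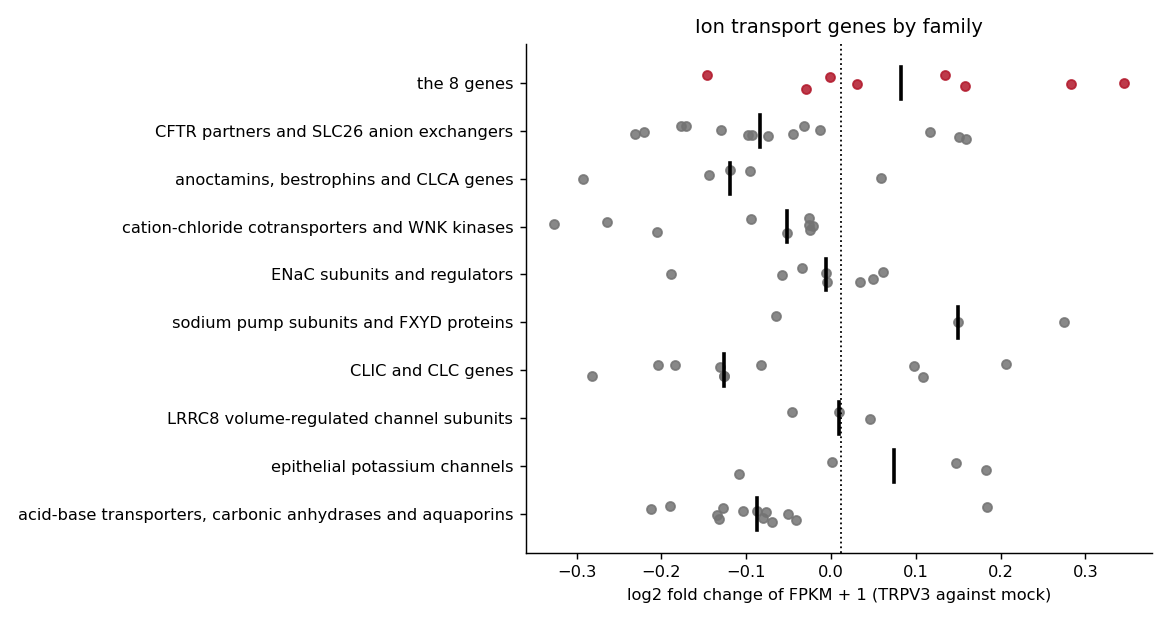
Log2 fold change of FPKM + 1 (TRPV3 against mock, all 6 libraries) of each tested gene, 1 point per gene, for the 8 genes (red) and 9 lists of related genes (grey), with a bar at the median and a dotted line at the median of all genes tested. The 8 genes ran from -0.15 to 0.35, and the related genes from -0.33 to 0.27.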

How the data were processed

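The series holds 6 RNA-seq libraries of SZ95 sebocytes. Per the labels' protocols, RNA was extracted with TRIzol and a NEBNext Ultra kit was used for the libraries. HISAT2 2.0.5 and hg38 are named in the submitters' processing notes; the sources used here do not give how reads were counted or with which strand setting. The deposited table gives FPKM per gene and library, made by the authors, with a gene length.

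Whole reads were recovered from FPKM times length, which came out whole for 100% of values (tolerance 0.02 reads). At these depths 3 reads, the limit that 0 reads allow, are 0.165 to 0.185 FPKM for a gene of 1 kb, for counting error only. Values were analysed as log2(FPKM + 1) in R 4.3.3 with limma 3.58.1 (group model, mean-variance trend, Benjamini-Hochberg adjustment over the 12177 genes averaging 1 FPKM or more). Calls are at an adjusted p under 0.05, from limma throughout. The script was tested on simulated data. The simulated libraries had no gene-length trend and none stood apart, so that test does not cover a library like TRPV3 replicate 1. Exonic overlaps used GENCODE 29, and promoter sequence is from RefSeq. The members, gene lists and rules were chosen with earlier results of these data known. Named related genes were the 3 of highest mean FPKM in each list, those called, and partner subunits; others are marked. Some genes under this rule are not reported here. Replicates are biological per the design text.

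Alternatives changed the pseudocount (0.1), the filter (none, or 5 FPKM), the scaling (quantile or TPM) and the trend (none), added a replicate block, left out each library in turn, removed a gene-length trend (lowess, span 0.3) or used limma-voom on recovered reads, with and without TRPV3 replicate 1. Leaving out TRPV3 replicate 1 and mock replicate 3 together was added after the data were seen. Figures were drawn with matplotlib 3.10.9.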

Additional observations from a re-analysis of the deposited data

How the results depend on the processing

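Of 17 alternatives, the count of related genes called was 0 in each, and TRPV3 passed limma's test in each, with log2 fold changes from 8.74 to 10.74. The median of the 8 genes ran from -0.0041 (TPM scaling) to 0.12 (without TRPV3 replicate 1), within the spread between libraries. CFTR, ANO1, SCNN1A, ATP1B1 and CLIC1 kept their sign in every alternative in which they were fitted (CFTR could not be fitted at a filter of 5 FPKM), while SLC12A2, LRRC8A and KCNN4 turned in 5, 4 and 6. CFTR ran from 0.24 without TRPV3 replicate 2 to 0.70 by limma-voom without TRPV3 replicate 1. These ends are on unlike scales, since adding 1 to FPKM shrinks fold changes at low levels and limma-voom does not add it. With all libraries CFTR was at 0.35, at 0.44 with a pseudocount of 0.1 and at 0.43 by limma-voom. The ends of the TRPV3 range are on unlike scales in the same way. Genes called higher over the whole table, 5 with all libraries, numbered 2 with no filter, 3 at a filter of 5 FPKM and 2 with the replicate block. They numbered 2 to 8 with 1 library left out, 69 by limma-voom without TRPV3 replicate 1 and 9 without TRPV3 replicate 1 and mock replicate 3. Genes called lower, 0 with all libraries, numbered 1 with a pseudocount of 0.1, 1 with TPM scaling, 1 with the replicate block, 0 to 1 with 1 library left out, 3 by limma-voom without TRPV3 replicate 1 and 1 without both libraries. The cause was not tested. Deviations from the group means of same-numbered libraries correlated across genes at -0.27, -0.04 and -0.17. Those of differently numbered libraries correlated at -0.16 to 0.22. The deviations are centred within each group, which ties them to one another, so these values cannot decide whether same-numbered libraries were paired. CFTR rested on 375 to 712 reads in a library.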
